A study of Mus musculus with 4 samples.

Results

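Osteopontin (Spp1), its receptor Cd44 and 8 further genes of matricellular and adhesive matrix proteins were described in mouse mammary carcinoma cells from tumors resistant to PD-L1 blockade and from control tumors. Spp1 was chosen by its read abundance in these libraries, so its level and rank are a description and were not tested. Cd44, Sparc, Thbs1, Thbs2, Thbs3, Tnc, Postn, Fn1 and Vtn were taken by symbol, with earlier results of these data known. These 10 genes were found among the 55385 genes of the table, and 9 of them reached the mean of 10 normalized counts that a gene needed to be tested, as did 14238 genes in all.

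RNA was sequenced in bulk from 4TO7 cells, a mouse mammary carcinoma line, recovered by enzymatic digestion of tumors grown in BALB/c mice. The 2 resistant libraries came from tumors resistant to an antibody against PD-L1, the ligand of the checkpoint receptor PD-1, and the 2 control libraries came from control tumors. The treatment label reads untreated for all 4 libraries, whereas the treatment protocol of all 4 names anti-PD-L1 given in vivo, so what the control tumors received is not settled by the labels. The design text calls the libraries of a group biological replicates without saying whether they came from separate animals, so the spread behind each p-value is that between libraries and may be technical. No allele, time or age is given.

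The libraries held 45666470 to 49592054 counted reads. The control libraries differed more from each other than the resistant ones, with a standard deviation of the log2 difference across genes of 0.306 between the resistant libraries and 0.453 between the control libraries. The keratins Krt8 and Krt18 were abundant in every library, at 12649 or more normalized counts, whereas the epithelial adhesion gene Epcam had 87.6 and 114 in the resistant libraries, against 341 and 246 in the control libraries. Of these and 3 further carcinoma markers, Krt19 (298 and 425 in resistant libraries, against 48.0 and 41.4 in control libraries) and Krt7 were called higher and Epcam lower, with log2 fold changes of 2.97, 1.90 and -1.53. Krt8, Krt18 and Cdh1 were not called. The shares over all tested genes were 5.32% called higher and 4.73% called lower. Several defining leukocyte genes were at or near 0, with at most 2.15 for Ptprc. Among genes that macrophages also express, Cd68 and Gpnmb were abundant, Cd14 had 689 to 1709 normalized counts and Trem2 29.2 to 65.4. Control replicate 2 stood apart in some fibroblast markers, with 76.7 normalized counts of Col1a2, 13.1 of Col3a1 and 10.1 of Thy1. In these genes no other library exceeded 1.07, 1.02 and 0. Other fibroblast markers, Dcn and Pdgfra among them, were lower there than in control replicate 1. The summed level of the 9 fibroblast markers was lowest in control replicate 2, at 6609, but most of it was Pdgfra, at 5766. In bulk RNA, fewer cells of a type and less RNA per cell cannot be told apart.

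Matricellular proteins are secreted into the extracellular matrix, where they bind receptors and growth factors and modulate adhesion and migration more than they build structure. Osteopontin is a phosphorylated glycoprotein of bone and of many carcinomas and binds integrins through an Arg-Gly-Asp (RGD) motif. Cd44 is the main receptor for hyaluronan and is also described as an osteopontin receptor. Fibronectin (Fn1) and vitronectin (Vtn) are adhesive glycoproteins that share the RGD motif with osteopontin.

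The RGD motif is the sequence feature through which several of these proteins reach the same integrins, so the coding sequences around it are shown. In the longest coding transcript of each gene in GENCODE M21, 5 of the 10 genes held at least 1 RGD and 5 (Cd44, Sparc, Thbs3, Tnc and Postn) held none. Each line gives 18 bases on either side of the motif in the coding strand, with the 9 bases that code for Arg-Gly-Asp in capitals. Codons are counted from 1 at the start codon. Ibsp and Dmp1, relatives of Spp1, are added for comparison.
Spp1, codon 145: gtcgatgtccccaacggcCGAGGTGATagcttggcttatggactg
Thbs1, codon 927: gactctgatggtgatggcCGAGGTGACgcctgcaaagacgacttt
Thbs2, codon 928: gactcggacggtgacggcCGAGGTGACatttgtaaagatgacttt
Fn1, codon 1614: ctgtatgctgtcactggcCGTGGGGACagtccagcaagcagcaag
Vtn, codon 64: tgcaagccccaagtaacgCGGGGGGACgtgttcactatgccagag
Ibsp, codon 293: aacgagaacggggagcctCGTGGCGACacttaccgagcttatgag
Dmp1, codon 350: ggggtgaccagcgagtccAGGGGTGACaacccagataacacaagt
Fn1 held a further RGD at codon 2181. Thbs1 and Thbs2 used the same codons for the motif at neighbouring codon numbers, whereas the other 5 genes each used a different codon set. Of the RGD genes, Spp1 and Fn1 had more reads than any other gene, and Thbs2 and Vtn were among the lowest members.

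Among the 9 tested genes, none was called higher and 1 was called lower in resistant libraries, Postn, at a Benjamini-Hochberg adjusted p under 0.05 in limma. Of all 14238 tested genes, 10.1% were called in either direction, 5.32% higher and 4.73% lower, so the members' share was near the background. The groups did not overlap for 3 of the 9 genes (Thbs1 and Fn1 with the resistant libraries above, Postn with them below), against 56.7% of all tested genes. The median log2 fold change, resistant minus control, was 0.12 over the 9 genes and 0.0023 over all tested genes. Together the 10 genes took 3.21% and 3.65% of the reads in the resistant libraries, against 3.33% and 2.57% in the control libraries. Values of a group are given here and below with replicate 1 before replicate 2.

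**Figure D1:**
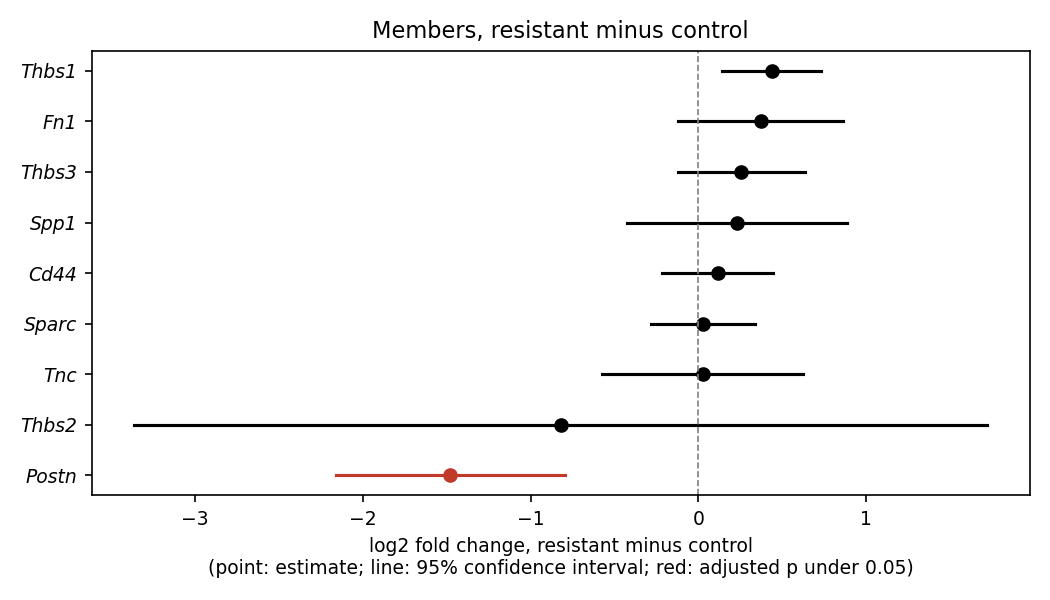
Log2 fold change (resistant minus control, log2 of the normalized count plus 1) of the 9 tested genes, with the point as the estimate and the line as its 95% confidence interval from limma. Postn at -1.48 is the member in red, with an adjusted p under 0.05, and the interval of Thbs2 is the widest, at -3.36 to 1.72.

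Spp1, the ligand, took more reads than any other gene in every library. It had 877690.0 and 996883 normalized counts in the resistant libraries, against 996084 and 639748 in the control libraries. This was 1.83% and 2.04% of the counted reads in the resistant libraries, against 2.09% and 1.37% in the control libraries. The exact binomial 95% intervals cover counting error only and were narrow, for example 1.829% to 1.836% in resistant replicate 1. The groups overlapped, since control replicate 1 lay beside resistant replicate 2 and control replicate 2 was the lowest library.

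Mean Spp1 was 937286 ± 84282 normalized counts in resistant libraries and 817916 ± 251968 in control libraries (SD, n = 2 each). The log2 fold change was 0.23 ± 0.28 (SE), with a 95% interval of -0.42 to 0.88 and a limma adjusted p of 0.656, so the interval spans both a lower and a higher level. Most of the spread lay in the control pair. Its libraries differed by 0.64 on the log2 scale, or 1.56-fold, and 2.71% of the 7684 genes averaging 1000 normalized counts or more differed by more in that pair. The resistant pair differed by 0.18, which 23.3% of these genes exceeded. Without control replicate 2 the log2 fold change of Spp1 was -0.091 (adjusted p = 0.831), and without control replicate 1 it was 0.55 (adjusted p = 0.0508).

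Macrophages also make osteopontin, so the leukocyte markers are given beside Spp1. Of 18 such genes, 4 were tested, with 1 higher (Cd68) and 1 lower (Cd14) in resistant libraries. Of all tested genes, 5.32% were called higher and 4.73% lower. The defining genes C1qa, C1qc, Cd8a, Ms4a1 and Nkg7 had no read in any library. The macrophage gene Adgre1 was at 0 in the resistant libraries, against 0 and 1.01 normalized counts in the control libraries. Further macrophage genes were low but read, with at most 8.07 for Csf1r and 10.6 for Mrc1. Lyz2 had 8.15 and 7.51 in resistant libraries, against 1.92 and 1.01 in control libraries. Trem2 had 42.8 and 65.4 in resistant libraries, against 54.8 and 29.2 in control libraries. The part of macrophage RNA in Spp1 was not tested. The summed level of the 18 markers was 210179 and 235337 in resistant libraries, against 188119 and 196026 in control libraries, and most of it was Gpnmb, with 198861 and 224478 in resistant libraries, against 183110 and 188473 in control libraries.

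**Figure D2:**
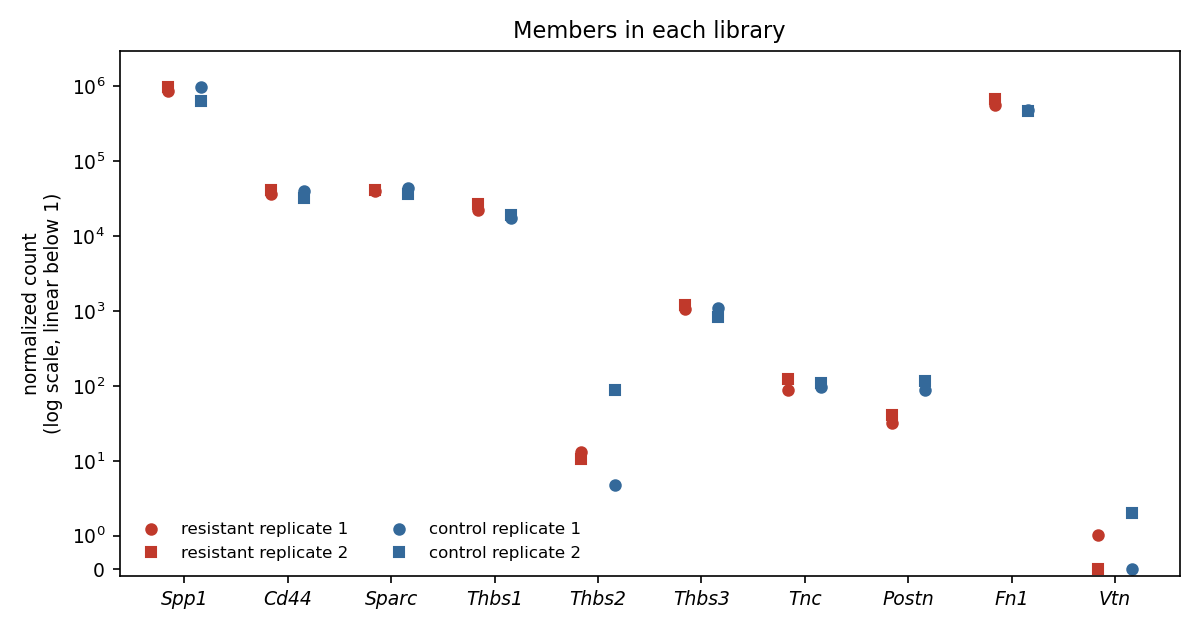
Normalized count of each of the 10 genes (vertical axis, log scale that is linear below 1) in the 2 resistant (red) and 2 control (blue) libraries, circles for replicate 1 and squares for replicate 2. Spp1 and Fn1 lie above all others, Thbs2 is high in control replicate 2 alone, and the resistant libraries lie below the control libraries for Postn.

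Spp1 lies on the forward strand of chromosome 5 (ENSMUSG00000029304.14, chr5:104435118-104441050, mm10). Of its 1648 exonic bases, 309 overlap Gm42793, an unassessed transcript on the same strand with a mean of 335 normalized counts, and the share of reads that could belong to either gene was not measured. Upstream of it in position order lie Mepe, Ibsp, Dmp1, Dspp and Sparcl1, a cluster of genes for secreted acidic glycoproteins, and downstream lies Pkd2, the gene of a cation channel. Dmp1, dentin matrix protein, was the only other one of this cluster at a high level, with 17646 and 21976 normalized counts in resistant libraries, against 20942 and 13626 in control libraries. As for Spp1, control replicate 2 was its lowest library, and its log2 fold change was 0.22 ± 0.21 (limma adjusted p = 0.544). Leaving out control replicate 2 gave -0.089. Leaving out control replicate 1 gave 0.53, which was called (adjusted p = 0.000267).

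Ibsp, bone sialoprotein, rose in resistant libraries, with 290 and 386 normalized counts, against 113 and 57.5 in control libraries. The resistant libraries were both above the control ones, and the log2 fold change was 2.04 ± 0.33 (limma adjusted p = 0.0113). The call was lost without resistant replicate 2 (adjusted p = 0.0574), where the log2 fold change was 1.83. Dspp had 2.04 and 2.15 normalized counts in the resistant libraries and was listed at 0 in both control libraries, and Mepe had at most 3.22 in any library, so neither was tested. Within 5 Mb of Spp1, 67 genes were tested, of which 2 were higher and 8 lower in resistant libraries, with a median log2 fold change of -0.10. Of all tested genes, 5.32% were higher and 4.73% lower.

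**Figure D3:**
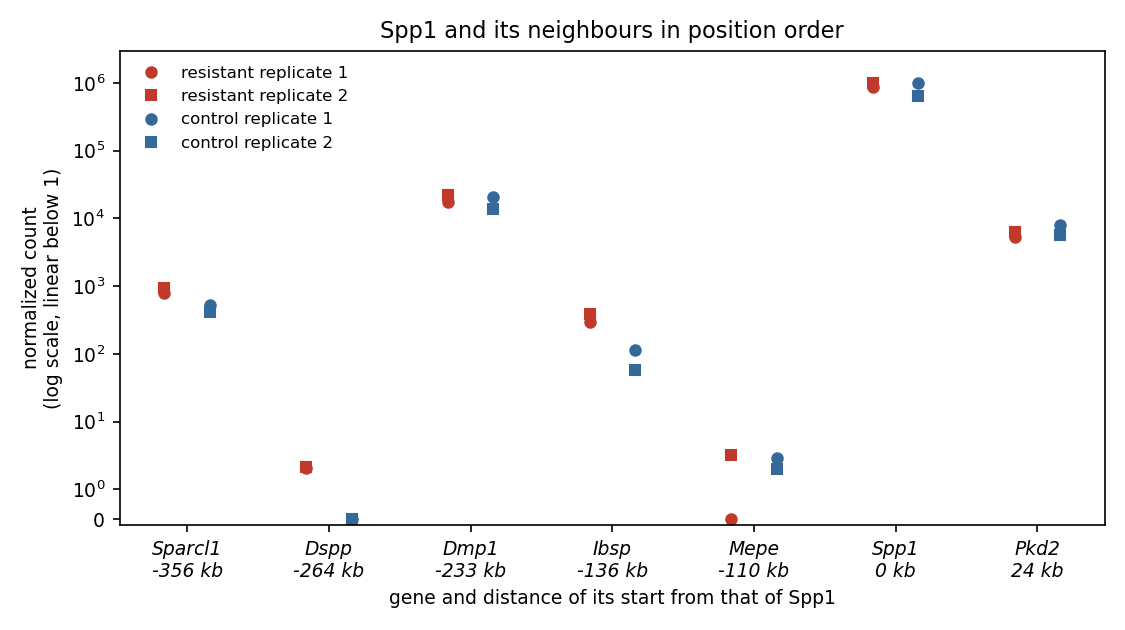
Normalized count (vertical axis, log scale that is linear below 1) of Spp1 and neighbouring genes in position order, with the distance of each gene's start from that of Spp1 in kb, in resistant (red) and control (blue) libraries. Spp1 and Dmp1 are the most abundant, both lowest in control replicate 2, and Ibsp and Sparcl1 have both resistant libraries above both control libraries.

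The upstream sequences of Spp1 and Dmp1 are shown because both genes were high and had their lowest level in the same library; Dmp1 was picked for this after its values were seen. The windows are the 250 bases before the annotated start in the RefSeq promoter table (GRCm38.p6), chr5:104434861-104435110 for Spp1 and chr5:104202367-104202616 for Dmp1, both on the forward strand. Capitals mark the Runx motif TGTGGT, here as its reverse complement ACCACA, and GGAGGAAGTGT and TTTAAATTCTG, the 2 longest words found in both windows on the same strand, each of 11 bases.
Spp1: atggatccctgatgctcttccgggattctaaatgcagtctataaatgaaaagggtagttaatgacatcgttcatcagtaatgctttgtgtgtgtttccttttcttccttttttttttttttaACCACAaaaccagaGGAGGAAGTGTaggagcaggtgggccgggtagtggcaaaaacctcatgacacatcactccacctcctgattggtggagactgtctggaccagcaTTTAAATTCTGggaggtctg
Dmp1: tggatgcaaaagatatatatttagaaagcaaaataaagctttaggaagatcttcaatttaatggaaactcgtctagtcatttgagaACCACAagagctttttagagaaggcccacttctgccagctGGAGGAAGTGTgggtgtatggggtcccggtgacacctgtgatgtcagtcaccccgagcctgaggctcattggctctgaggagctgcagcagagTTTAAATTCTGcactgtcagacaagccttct
The Runx match began 128 bases upstream of the start in Spp1 and 164 bases upstream in Dmp1, GGAGGAAGTGT 114 bases upstream in Spp1 and 124 in Dmp1, and TTTAAATTCTG 20 bases upstream in Spp1 and 31 in Dmp1. On both strands, TGTGGT was found in 14.0% of 32851 windows of this length. GGAGGAAGTGT was found in 45 of them (0.137%) and TTTAAATTCTG in 13 (0.040%), the windows of Spp1 and Dmp1 included. Both words were taken from these 2 windows for their length. A longer word is found in fewer windows by its length alone, so these shares do not measure how alike the 2 windows are. The table had a window for 8 of the 10 members, and among these Spp1 was the 1 member with TGTGGT, 0 had the AP-1 motif TGANTCA (6.75% of all windows) and 5 had TATAAA (12.4%). A match of letters is a description and was not tested for binding.

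Over the 4 libraries, the genes whose centred log2 profile lay nearest to that of Spp1, among 7683 genes averaging 1000 normalized counts or more, were Plpp3, Pitpna, Rassf3, Gas7 and Dio2, at Euclidean distances of 0.030, 0.052, 0.053, 0.072 and 0.073. They encode a lipid phosphatase, a phosphatidylinositol transfer protein, a Ras-association domain protein, a growth-arrest-specific protein and a deiodinase. Dmp1 was the 12th nearest, at 0.095. Of the members, Thbs3 was the 118th, Cd44 the 334th, Sparc the 684th, Fn1 the 1488th and Thbs1 the 3912th. With 4 libraries this is a description of shared highs and lows, which scaling and sample makeup also shape.

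Cd44, the receptor (ENSMUSG00000005087.17, chr2:102811141-102901665, reverse strand), had 36429 and 41521 normalized counts in resistant libraries, against 39582 and 32526 in control libraries. The groups overlapped, with control replicate 2 again the lowest. The means were 38975 ± 3601 in resistant and 36054 ± 4989 in control libraries (SD, n = 2 each), with a log2 fold change of 0.12 ± 0.14, a 95% interval of -0.21 to 0.45 and a limma adjusted p of 0.654. It was -0.025 without control replicate 2. Counts per gene do not separate the Cd44 splice forms.

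Sparc, a collagen-binding counter-adhesive protein (ENSMUSG00000018593.13, chr11:55394500-55423183, reverse strand), had 40351 and 41798 normalized counts in resistant libraries, against 44231 and 36685 in control libraries. Both resistant libraries lay between the control ones. The log2 fold change was 0.028 ± 0.13 with a 95% interval of -0.28 to 0.34 (limma adjusted p = 0.918), and its sign turned when libraries were scaled to total reads (-0.012) or when control replicate 2 was left out (-0.11).

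Thbs1, thrombospondin 1, an adhesive glycoprotein that activates latent TGF-beta and binds Cd47 (ENSMUSG00000040152.8, chr2:118111876-118127133, forward strand), had 22479 and 26687 normalized counts in resistant libraries, against 17287 and 18976 in control libraries. Both resistant libraries were above both control libraries. Mean Thbs1 was 24583 ± 2976 in resistant and 18131 ± 1195 in control libraries (SD, n = 2 each), and the log2 fold change was 0.44 ± 0.13, with a 95% interval of 0.14 to 0.73. The limma adjusted p was 0.0754, so Thbs1 missed the threshold. Thbs1 passed without control replicate 1 (0.37) or control replicate 2 (0.50). It did not pass without resistant replicate 1 (0.56) or resistant replicate 2 (0.31). In these fits the library left alone in its group is assumed to vary like those of the other group. The 98 tested genes within 5 Mb of Thbs1 had a median log2 fold change of 0.36, with 17 higher and 1 lower. Of all tested genes, 5.32% were called higher and 4.73% lower. The 42 tested neighbours of Thbs2 had a median of 0.47, with 11 higher and 0 lower. The 128 of Thbs3 had a median of -0.25, with 1 higher and 17 lower. These members were opposite in sign, at -0.82 and 0.25, but without control replicate 2 Thbs2 was at 1.16. A shared regional shift was not tested.

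Thbs2, thrombospondin 2, a matricellular protein of fibroblasts and other stromal cells (ENSMUSG00000023885.9, chr17:14665500-14694235, reverse strand), was low except in control replicate 2. It had 13.2 and 10.7 normalized counts in resistant libraries (13 and 10 reads), against 4.80 and 88.8 in control libraries (5 and 88 reads). The resistant libraries lay between the control ones. The log2 fold change was -0.82 ± 1.09, with a 95% interval of -3.36 to 1.72 (limma adjusted p = 0.684). Leaving out control replicate 2 gave 1.16 (adjusted p = 0.154). Leaving out control replicate 1 gave -2.80, which was called (adjusted p = 1.68e-08). Fibroblast collagen genes were high in the same library, with 1.02 and 1.07 normalized counts of Col1a2 in resistant libraries, against 0.961 and 76.7 in control libraries, and 33.6 and 35.4 of Col1a1 in resistant libraries, against 12.5 and 69.6 in control libraries. Their part in the value of Thbs2 was not tested.

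Thbs3, the pentameric thrombospondin of the set (ENSMUSG00000028047.11, chr3:89215180-89226837, forward strand), had 1071 and 1216 normalized counts in resistant libraries, against 1087 and 841 in control libraries. The groups overlapped through control replicate 1. The log2 fold change was 0.25 ± 0.16, with a 95% interval of -0.12 to 0.63 (limma adjusted p = 0.365), and without control replicate 1 it was 0.44 and called (adjusted p = 0.0241). Of its 4823 exonic bases, 318 overlap exons of Mtx1 on the opposite strand, which had a mean of 2245 normalized counts. The sources used here do not state if reads were counted by strand, so the reads of these bases cannot be told apart.

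Tnc, tenascin C, a hexameric protein of wound and tumor stroma (ENSMUSG00000028364.15, chr4:63959785-64047015, reverse strand), was low and overlapped between groups. It had 88.7 and 122 normalized counts in resistant libraries, against 96.1 and 109 in control libraries. The log2 fold change was 0.025 ± 0.26, with a 95% interval of -0.57 to 0.62 (limma adjusted p = 0.966). The interval spans both a lower and a higher level, so a change within it is not excluded at this depth and replication. The sign turned without resistant replicate 2 (-0.20) or control replicate 1 (-0.064), and with scaling to total reads (-0.014).

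Postn, periostin, an integrin-binding matrix protein typical of activated fibroblasts and of metastatic niches (ENSMUSG00000027750.16, chr3:54361109-54391037, forward strand), was the member called lower. It had 31.6 and 40.8 normalized counts in resistant libraries, against 88.4 and 117 in control libraries. Both resistant libraries were below both control libraries. Postn fell to a mean of 36.2 ± 6.48 in resistant libraries, against 103 ± 20.2 in control libraries (SD, n = 2 each), a log2 fold change of -1.48 ± 0.29 with a 95% interval of -2.16 to -0.79 (limma adjusted p = 0.0226). The call was lost without resistant replicate 1 (-1.30, adjusted p = 0.183) and without resistant replicate 2 (-1.66, adjusted p = 0.0889), and with no filter on low values (adjusted p = 0.0966).

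Among 9 fibroblast markers, 5 were tested, with 1 higher (Pdgfrb, log2 fold change 1.00) and 1 lower (Dcn, decorin) in resistant libraries. Over all tested genes, 5.32% were called higher and 4.73% lower. Dcn had 163 and 143 normalized counts in resistant libraries, against 763 and 483 in control libraries (log2 fold change -1.99 ± 0.24, limma adjusted p = 0.00343). The summed level of the 9 markers was 7493 and 8952 in resistant libraries, against 9506 and 6609 in control libraries, and most of it was Pdgfra, with 6940 and 8313 in resistant libraries, against 8504 and 5766 in control libraries. Lum was at 0 in both resistant libraries and in 1 control library, and Fap had 3.06 and 2.15 in resistant libraries, against 6.72 and 6.05 in control libraries. The part of fibroblast RNA in the difference in Postn was not tested.

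Fn1, fibronectin (ENSMUSG00000026193.15, chr1:71585520-71653200, reverse strand), took the second most reads in every library. It had 558799.9 and 681357 normalized counts in resistant libraries, against 489631 and 465673 in control libraries. Both resistant libraries were above both control libraries, with means of 620078 ± 86661 in resistant and 477652 ± 16941 in control libraries (SD, n = 2 each). The log2 fold change of 0.37 ± 0.21 did not pass, with a 95% interval of -0.12 to 0.86 and a limma adjusted p of 0.312. Of its 11685 exonic bases, 292 overlap Apol7d on the opposite strand, which had a mean of 19.4 normalized counts. After Spp1 and Fn1, the genes with the most reads were Hspa5, a chaperone of the endoplasmic reticulum, Ctsl, a lysosomal protease, and Eef2, a translation elongation factor.

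Vtn, vitronectin, a plasma protein made mainly by the liver (ENSMUSG00000017344.4, chr11:78499091-78502324, forward strand), had 1 and 0 reads in the resistant libraries and 0 and 2 in the control libraries. All 4 libraries lay under the floor of 3 reads, so no fold is given and a difference was not detectable at this depth.

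Levels of different genes were compared per kilobase of exon. Spp1 had 532579 and 604905 normalized counts per kb in resistant libraries, against 604419.7 and 388196 in control libraries, and ranked first of all genes in each. Its mean over the 4 libraries was 532525 per kb, and the next were Mir6236 at 200815, which is annotated with 123 exonic bases, and Lgals1, galectin 1, at 171374. Fn1, the second member in this order, had a mean of 46972 per kb and ranked 13th to 19th of all genes. The level of Spp1 over that of Fn1 per kb was 11.1 and 10.4 in resistant libraries, against 14.4 and 9.74 in control libraries, so the groups overlapped in this ratio also.

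After Spp1 and Fn1 came Sparc, Cd44, Thbs1 and Thbs3, and the lowest library of each of these first 6 genes lay above the highest library of the gene after it. Thbs3, at 174 to 252 normalized counts per kb, was followed at a distance by Tnc at 11.4 to 15.7. Tnc, Postn, Thbs2 and Vtn overlapped, each with the next in the order. Postn had 3.63 and 4.68 per kb in resistant libraries, against 10.2 and 13.4 in control libraries. With the coding length in place of the exonic length, Tnc and Postn changed places and the other members kept theirs.

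**Figure D4:**
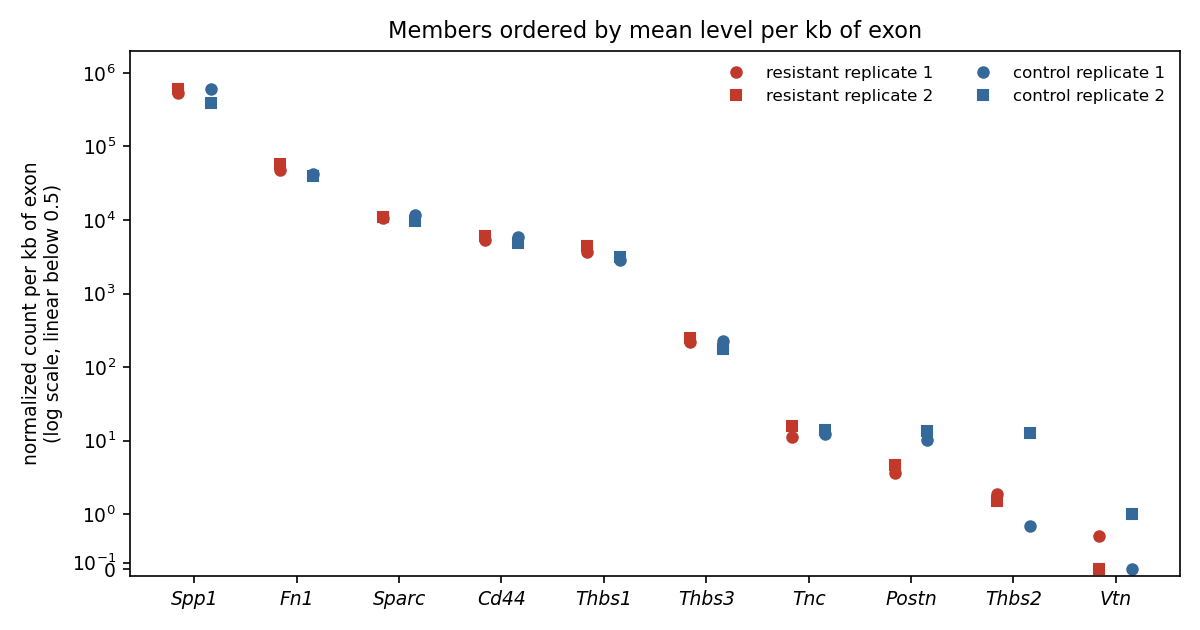
Normalized count per kb of exon (vertical axis, log scale that is linear below 0.5) of the 10 genes, ordered by their mean, in resistant (red) and control (blue) libraries. Spp1 is the highest with 388196 or more in every library, and the libraries of the last 4 genes overlap from one gene to the next.

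The receptors and partners of these proteins were taken from lists chosen with earlier results of these data known. Of 10 integrin subunits that bind these ligands, 7 were tested, 1 was called higher and 1 lower, and their median log2 fold change was 0.033. Over all tested genes, 5.32% were called higher and 4.73% lower, and the median was 0.0023. Itgb3, the beta subunit that pairs with Itgav in the classical osteopontin and vitronectin receptor, had 1831 and 2220 normalized counts in resistant libraries, against 1213 and 711 in control libraries, and rose by 1.12 ± 0.24 on the log2 scale (limma adjusted p = 0.0295). Itgb8, the subunit of a receptor that activates latent TGF-beta, fell, with 59.1 and 57.9 normalized counts in resistant libraries, against 181 and 166 in control libraries (-1.55 ± 0.23, limma adjusted p = 0.00731). The groups did not overlap for either, as for 56.7% of all tested genes. The most abundant subunits that did not pass were Itgb1 at 0.077 and Itgav at -0.019. The call of Itgb3 was lost without resistant replicate 2 (0.98, adjusted p = 0.124), and that of Itgb8 without resistant replicate 1 (-1.57, adjusted p = 0.0528) or resistant replicate 2 (-1.54, adjusted p = 0.0621).

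Of 8 other receptors, 6 were tested, with a median of 0.045. Among them 1 was called, higher in resistant libraries, against 5.32% called higher and 4.73% lower of all tested genes. This was Sdc1, syndecan 1, a heparan sulfate proteoglycan that binds fibronectin and thrombospondin. It had 12515 and 14869 normalized counts in resistant libraries, against 7236 and 6938 in control libraries, and rose by 0.94 ± 0.12 on the log2 scale (limma adjusted p = 0.00386). The groups did not overlap, as for 56.7% of all tested genes. Sdc1 stayed past the threshold in every alternative run, the highest limma adjusted p being 0.0471. Without control replicate 1 more of these receptors were called higher, as among all tested genes. The thrombospondin scavenger receptor Lrp1 (-0.012) and the syndecan Sdc4 (0.10) did not pass.

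Among 15 genes of hyaluronan and of the Cd44 tail, 12 were tested, and the median was 0.18. Of these, 2 were called higher and 0 lower (2 called in either direction). The share over all tested genes was 5.32% higher and 4.73% lower (10.1% in either direction). Has2, a hyaluronan synthase, had 557 and 619 normalized counts in resistant libraries, against 256 and 242 in control libraries, and rose by 1.23 ± 0.16 on the log2 scale (limma adjusted p = 0.00477). Ezr, ezrin, which links Cd44 to actin, rose by 0.60 ± 0.11 (limma adjusted p = 0.0153), with 12276 and 13459 normalized counts in resistant libraries, against 8278 and 8738 in control libraries. The related linker Msn (0.17) and the membrane protease Mmp14 (-0.086) did not pass. The calls of both Has2 and Ezr were lost without resistant replicate 2 (adjusted p = 0.0729 and 0.200), and that of Ezr also without resistant replicate 1 (adjusted p = 0.0951). Without control replicate 2 more genes of the list were called in each direction, as among all tested genes.

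Of 9 enzymes that modify or cleave these proteins, 8 were tested, 3 were called higher and 0 lower, and the median was 0.28. Of all tested genes, 5.32% were called higher and 4.73% lower, with a median of 0.0023. Plau, urokinase, had 8885 and 9236 normalized counts in resistant libraries, against 4571 and 5659 in control libraries, and rose by 0.83 ± 0.13 on the log2 scale (limma adjusted p = 0.00872). Fam20c, the secretory-pathway kinase that phosphorylates osteopontin, rose by 1.32 ± 0.26 (limma adjusted p = 0.0224), with 400 and 442 normalized counts in resistant libraries, against 218 and 129 in control libraries. Mmp9, a protease that cleaves osteopontin, rose by 0.71 ± 0.16 (limma adjusted p = 0.0353), with 774 and 981 normalized counts in resistant libraries, against 547 and 521 in control libraries. The groups did not overlap for any of these 3 genes, as for 56.7% of all tested genes. Tgm2, which cross-links osteopontin and fibronectin (0.14), and Bmp1, a procollagen protease (0.0036), did not pass. Without resistant replicate 2 the adjusted p was 0.0566 for Plau, 0.132 for Fam20c and 0.386 for Mmp9, and without resistant replicate 1 it was 0.0794 for Fam20c and 0.0985 for Mmp9, so these calls were lost. Without control replicate 2 more enzymes were called in each direction, as among all tested genes.

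Among 32 other matricellular genes, 19 were tested, of which 8 were called higher and 0 lower in resistant libraries, against 5.32% higher and 4.73% lower among all tested genes. Their median log2 fold change was 0.56, against 0.0023 over all tested genes, and the groups did not overlap for 17 of the 19, against 56.7% of all tested genes. Without resistant replicate 2 all of these calls were lost, and without resistant replicate 1 fewer were made. More were made without either control library. Over all tested genes the number called higher moved the same way. With no filter on low values 1 was called higher and with no trend in the moderation 4, against 126 and 266 over all genes fitted. Angptl4, a secreted lipase inhibitor named here after its values were seen, had 21.4 and 16.1 normalized counts in resistant libraries, against 65.3 and 41.4 in control libraries, with a log2 fold change of -1.44 ± 0.37 (limma adjusted p = 0.0506). The number called lower was 1 with a pseudocount of 10 and with robust moderation. It was also 1 with the replicate block and with scaling to total reads, with or without the 10 most abundant genes. More were called lower without control replicate 2, as among all tested genes. A gene that reached the filter only through the group where it is high had to differ. Tnr, named here for that reason, is among the 8 called higher. It had 14.3 and 19.3 normalized counts in resistant libraries, against 3.84 and 4.03 in control libraries. Tnr also counts in the 17 without overlap and in the median. No test of the list was made. Ccn4, a Wnt-induced secreted protein, had 462 and 505 normalized counts in resistant libraries, against 212 and 195 in control libraries (1.24 ± 0.17, limma adjusted p = 0.0057). Tnxb, tenascin X, had 1276 and 1659 in resistant libraries, against 733 and 693 in control libraries (1.03 ± 0.16, limma adjusted p = 0.00891). Tnc, from the same family as Tnxb, was at 0.025 with overlapping groups.

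Some markers of vessel cells were higher in resistant libraries and others were not. Of all tested genes, 5.32% were called higher and 4.73% lower. Of 5 mural cell markers, 4 were tested, with 2 higher and 0 lower: Mcam, an adhesion molecule, at a log2 fold change of 1.82 ± 0.18 (limma adjusted p = 0.00151) and Des, desmin, at 2.08 ± 0.27 (limma adjusted p = 0.00447). Their summed level was 3895 and 4909 normalized counts in resistant libraries, against 1548 and 1127 in control libraries, and most of it was Mcam. The pericyte gene Rgs5 was at -0.050, Acta2 was at 1.33 without a call (limma adjusted p = 0.169), and Cspg4 had at most 8.58. Of 6 endothelial markers, 3 were tested, with 1 higher and 0 lower: Vwf, von Willebrand factor, at 2.45 ± 0.38 (limma adjusted p = 0.00895). Pecam1 at -0.43 and Tie1 at -0.24 were not called, and the median of the list was -0.24. The sum of the 6 endothelial markers was 199 and 267 in resistant libraries, against 134 and 71.6 in control libraries. Cdh5 was at 0 in the resistant libraries, against 1.92 and 0 in the control libraries. Kdr was at 0 in the resistant libraries, against 0 and 1.01 in the control libraries. Their part in the matricellular values was not tested.

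Smoc1, a Sparc-related calcium-binding protein, had 446 and 514 normalized counts in resistant libraries, against 253 and 207 in control libraries (1.06 ± 0.19, limma adjusted p = 0.0142). Sparcl1, the nearest relative of Sparc and a neighbour of Spp1, had 785 and 925 in resistant libraries, against 521 and 416 in control libraries (0.87 ± 0.17, limma adjusted p = 0.0221). Spock2, a proteoglycan with a Sparc-like domain, had 58.1 and 53.6 in resistant libraries, against 19.2 and 19.2 in control libraries (1.49 ± 0.31, limma adjusted p = 0.0261).

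**Figure D5:**
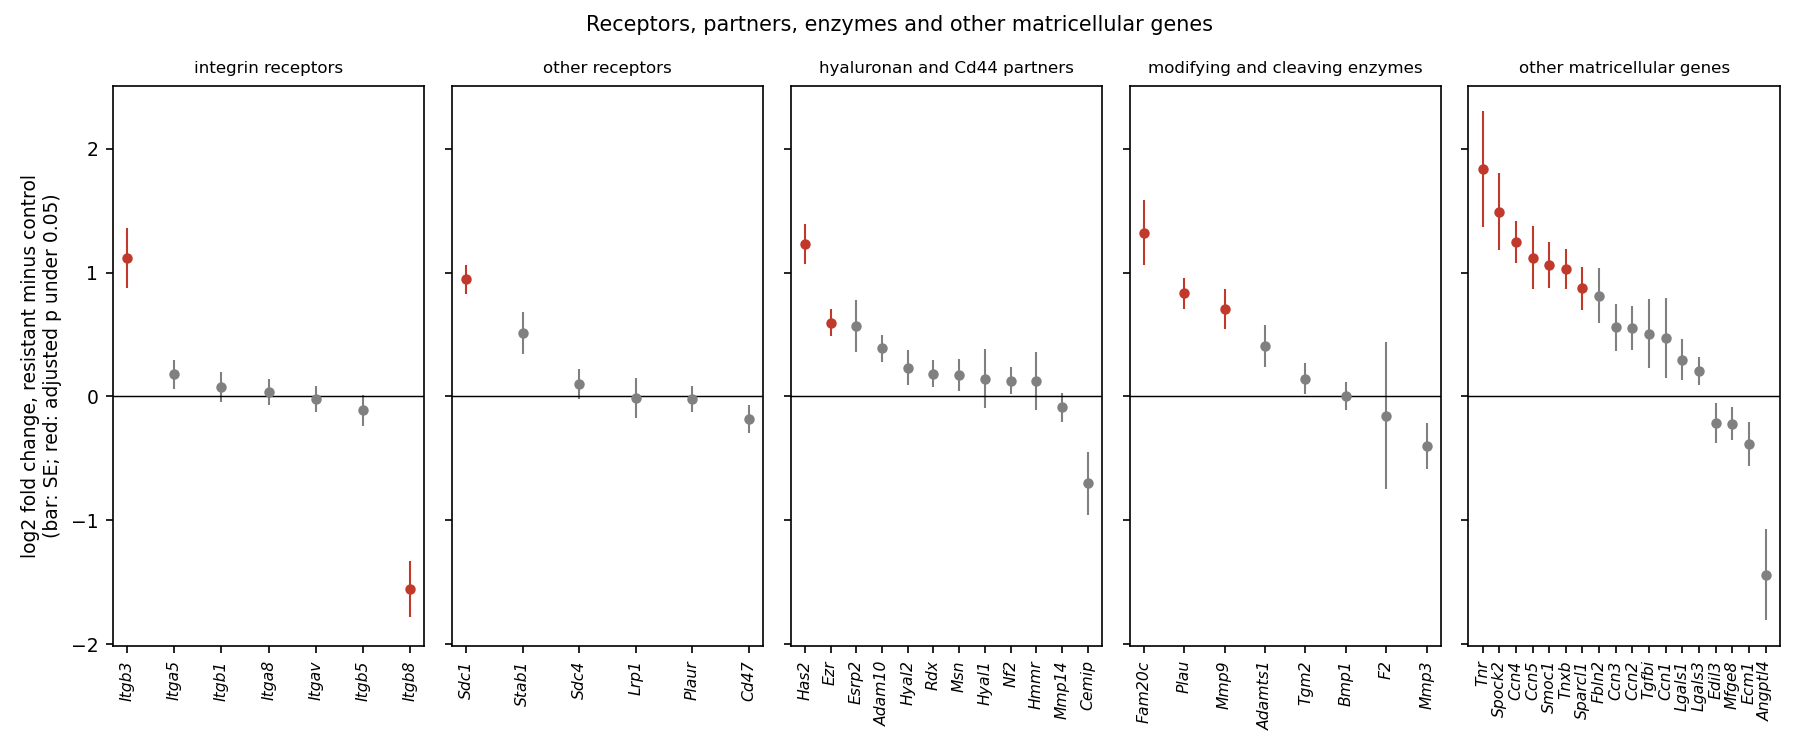
Log2 fold change (resistant minus control) with its SE for the tested genes of 5 lists that are reported here, in red where the limma adjusted p is under 0.05. Among the other matricellular genes 7 of the 18 drawn are red and all of these are above 0, whereas among the integrins Itgb3 lies at 1.12 and Itgb8 at -1.55.

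The most abundant genes of this list that did not pass were Lgals1 (0.30) and Mfge8, a milk fat globule protein with an RGD motif (-0.22). Without resistant replicate 2 the call was lost for Ccn4, Tnxb, Smoc1, Sparcl1 and Spock2. Without resistant replicate 1 it was lost for 3 of them, with adjusted p = 0.0792 for Smoc1, 0.0821 for Sparcl1 and 0.259 for Spock2. Lgals1 was called without control replicate 1 (adjusted p = 0.0237). With no filter on low values the calls of Itgb3, Ibsp, Ezr, Plau, Fam20c, Mmp9, Tnxb, Smoc1, Sparcl1 and Spock2 were also lost, and with no trend in the moderation those of Itgb3, Ibsp, Ezr, Plau, Fam20c, Mmp9, Tnxb and Sparcl1.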

How the data were processed

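RNA was sequenced in 4 libraries, 2 resistant and 2 control, grouped by their source labels, with columns matched to samples by title. The deposited values are log2 values of the size-factor-normalized count plus a pseudocount of 1. The authors used STAR and DESeq2 with mm10, per the submitters' processing notes, without versions. This scale was inferred: undoing it gave whole reads for 100% of values at a tolerance of 0.01 reads, and hence the depths. Of 55385 Ensembl identifiers, 28603 had no read in any library and 55144 were joined to symbols without the version (54487 match with it) in GENCODE M21, whose build GRCm38 is mm10.

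Differences, resistant minus control, were fitted on all 14238 genes averaging 10 or more normalized counts with limma 3.58.1 (trend, no block) in R 4.3.3 and adjusted by Benjamini-Hochberg at 0.05; fold changes on this scale understate those of low genes. Figures used matplotlib 3.10.9 in Python 3.11.15, and binomial intervals (95%) scipy 1.17.1. The deposited log2 values were tested as they are, and the recovered reads were tested with limma voom as an alternative; no other count model was run. The fit was tested on simulated data. Members and lists were chosen with earlier results of these data known. Named genes were the 10 members, up to 6 passing genes per list with the smallest p and up to 2 that did not pass with the highest mean, the 5 genes nearest to Spp1 and the 5 with the most reads; marker genes and neighbours were added to describe values beside them. The list counts include 1 gene that is not reported here. Alternatives were other pseudocounts, filters, scalings and moderation, voom, a replicate block and leaving out each library, and, after seeing the data, a crossed pairing and coding lengths.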

Additional observations from a re-analysis of the deposited data

How the results depend on the processing

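With 2 libraries a group, precision is set by the spread between libraries more than by depth, and leaving out 1 library takes the spread of its group from the other group. Of 142 member values under the alternatives, 124 kept direction and side of the threshold, 3 lost the call, 5 gained it and 10 turned sign. Over all genes, 758 were called higher and 674 lower, with 126 and 185 with no filter, 266 and 357 with no trend, 444 lower with a mean of at least 100, and 146 to 2074 higher and 234 to 1993 lower when leaving out 1 library. The number of members called higher was 0 to 2 and called lower 0 to 2 when leaving out 1 library; the number called lower was 0 with no filter and 0 with a mean of at least 100, where Postn was not tested. With the replicate block 628 genes were higher and 585 lower, and members called were 0 higher and 1 lower. Same-numbered libraries deviated oppositely (correlation -0.357), and what they share besides the number was not tested. With the crossed pairing, chosen after seeing the data, 2402 were higher, 2182 lower and 1 member, Thbs1, was higher. The cause of these shifts was not tested.

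Leaving out 1 library, the log2 fold changes that turned sign ranged over -0.091 to 0.55 for Spp1, -0.025 to 0.26 for Cd44, -0.11 to 0.16 for Sparc, -2.80 to 1.16 for Thbs2, -0.20 to 0.26 for Tnc, -0.0062 to 0.16 for Itgb1, -0.080 to 0.041 for Itgav, -0.22 to 0.19 for Lrp1, -0.056 to 0.064 for Bmp1 and -0.089 to 0.53 for Dmp1. Scaled to total reads, Sparc was at -0.012, Tnc at -0.014 and Bmp1 at -0.037. Without the 10 most abundant genes in that scaling, Sparc was at -0.0012, Tnc at -0.0034 and Bmp1 at -0.026, and scaled to the 75th percentile Bmp1 was at -0.0057.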
